A study of Mus musculus with 16 samples.

Results

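The genes described here are p53 (Trp53), its main regulators and a set of its target genes, 34 in all, followed in growing mouse oocytes that lacked the histone deacetylases Hdac1, Hdac2 or both. A member was read from probe sets to which the platform annotation assigns its symbol and no other, and from the probe set with the highest mean over all arrays where it had more than 1. By that rule 31 of the 34 were measured, out of 18820 genes. They divide into 3 regulators (Mdm2, Mdm4 and Ppm1d), 4 genes of DNA repair, 12 genes of growth arrest and stress and 12 genes of cell death. Trp53 itself, Gdf15 and Ddb2 had no probe set of their own and are not analysed here.

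p53 is a transcription factor that is held at a low level by the ubiquitin ligase Mdm2 and its partner Mdm4 and is stabilised when DNA damage or other stress activates kinases such as Atm and Chek2. It then binds paired half-sites in DNA and raises genes that halt the cell cycle, repair DNA, restrain metabolism or start apoptosis, and it raises Mdm2, which closes a feedback loop. HDAC1 and HDAC2 remove acetyl groups from histones and also from p53. In ovaries, the p53 relative p63 is known for deciding whether an oocyte with damaged DNA dies.

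The study sampled 4 genotypes with 4 arrays each: the Hdac1/2 double knockout, the Hdac1 knockout, the Hdac2 knockout and wild type. Per the labels, all mice had a C57BL/6 background and were 12 days old. The knockouts combined conditional loss-of-function alleles of Hdac1, Hdac2 or both with a Cre transgene under the promoter of Zp3, a zona pellucida gene switched on when oocytes begin to grow. Each biological replicate was total RNA of 80 pooled oocytes, amplified and hybridised to Affymetrix Mouse 1.1 ST arrays. Fewer cells of a type and less RNA per cell cannot be told apart in such samples.

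Values are the deposited log values, taken as log2. The base is inferred from their range, and every fold change rests on it. Standard deviations (SD) are over the 4 arrays of a genotype. Changes carry limma's standard error (SE), and a gene was called at a two-sided adjusted p under 0.05 (limma, Benjamini-Hochberg over 21218 probe sets). Hdac1 read 7.54 to 7.75 in the double knockout, 6.40 to 6.83 in the Hdac1 knockout, 9.55 to 9.77 in the Hdac2 knockout and 9.23 to 9.35 in wild type. The Hdac2 probe set read 10.81 to 10.95 in the double knockout, 11.05 to 11.16 in the Hdac1 knockout, 10.95 to 11.01 in the Hdac2 knockout and 11.02 to 11.18 in wild type. The labels do not say which Hdac2 exons were deleted or which the probes read, so the Hdac2 genotype is unchecked. The 16 measured oocyte markers all lay above the median of the tested probe sets (5.27) in each genotype.

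The double knockout was compared with wild type to ask what the joint loss of both enzymes does to these genes. In the stress group 7 genes rose, among them the polo-like kinases Plk2 and Plk3 (3.89-fold and 3.6-fold in signal) and Sesn2 and Ddit4, inhibitors of the growth kinase mTORC1 (2.05-fold and 1.87-fold). Of the 4 repair genes 3 fell, led by the translesion DNA polymerase gene Polk, which was left at 0.446 of the wild-type signal. The feedback regulators Mdm2 and Mdm4 fell slightly, and 9 of the 12 death genes did not pass. In all, 10 of the 31 members were higher and 8 lower, while 18.5% of all tested probe sets were higher and 19.8% lower. With probe sets dim in every genotype left out, 3070 of 11161 probe sets were higher and 3883 lower. The median change was 0.01 over the members and -0.01 over all tested probe sets, and member changes ran from -1.16 to 1.96. With each array centred on its median, 7 members were higher and 11 lower, and over all probe sets 2878 calls were higher and 6275 lower, against 3924 and 4198 with the values as deposited.

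**Figure D1:**
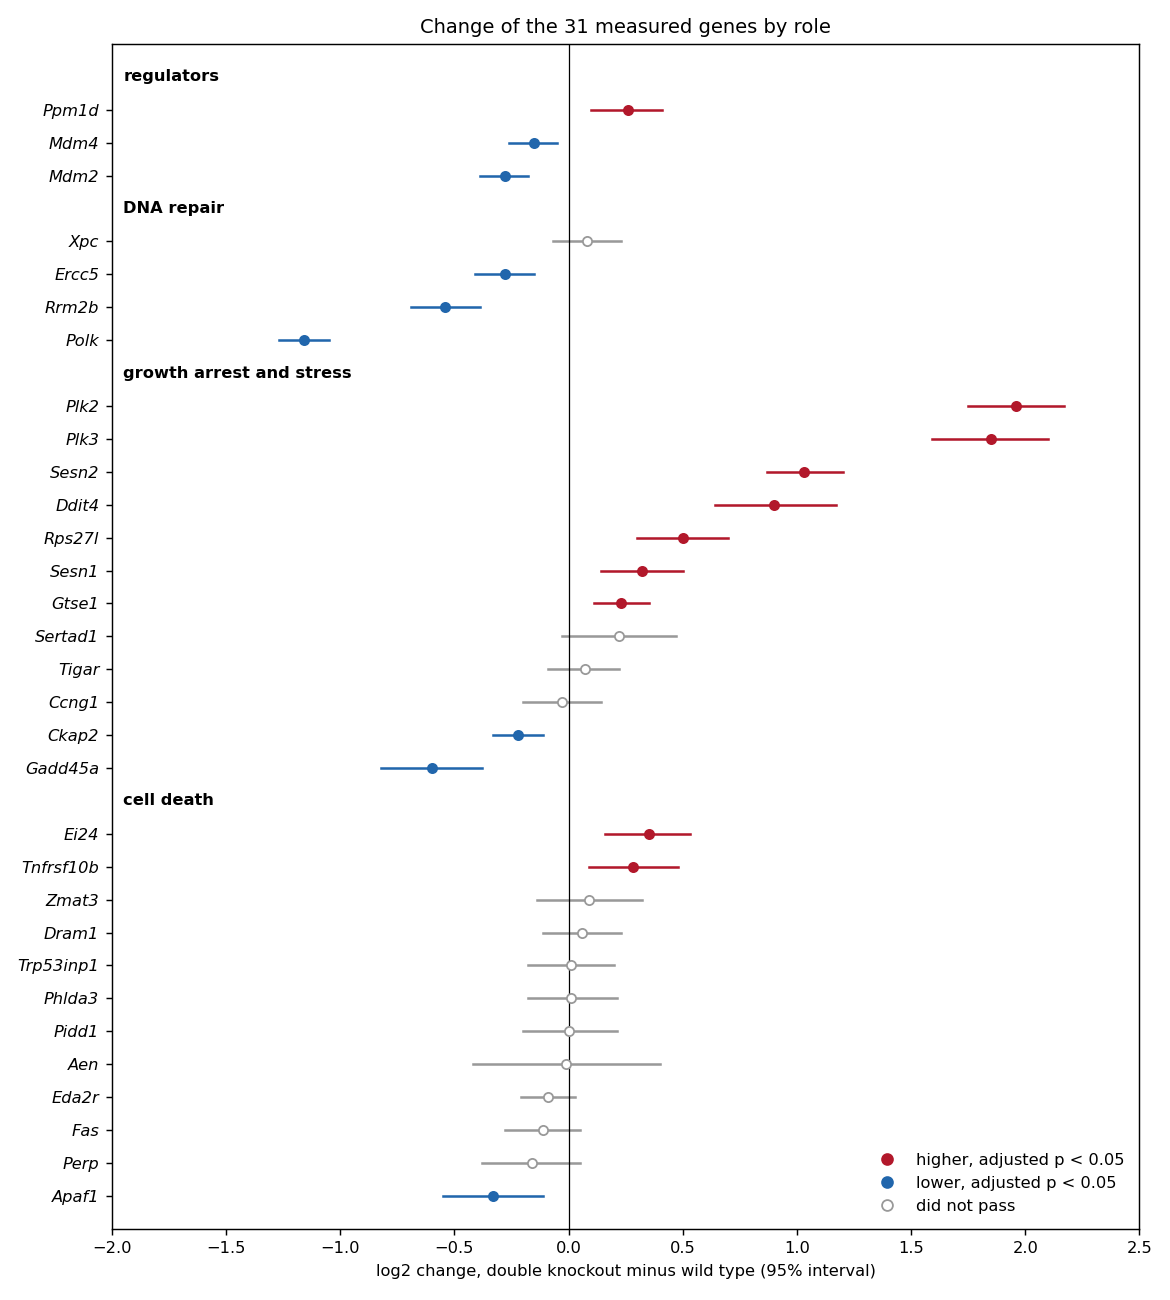
Log2 change of each measured gene in the double knockout against wild type, 1 row a gene, grouped by role. Points are limma estimates and bars their 95% intervals. Red points were called higher, blue lower, and open points did not pass. Plk2 (1.96) and Plk3 (1.85) lie farthest right and Polk (-1.16) farthest left, and most death genes sit near 0.

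Promoter sequence was available from RefSeq (GRCm38.p6) for 25 of the 31 measured members, as 31 windows running from 250 bases before to 50 after a transcript start. The 10-base p53 half-site, allowing no mismatch, occurred in 12 of these windows, 38.7% of them, against 8.36% of 32841 windows of all genes and 7.3% of 18154 windows of tested genes. Because the members were picked as known p53 targets, this share describes the list and is no finding about the oocytes. Windows of 1 gene can overlap and share a site. The 11 genes with a half-site went both ways in the double knockout: 5 were higher, 4 lower and 2 did not pass. Of the 14 genes with windows but no half-site in them, 4 were higher, 3 lower and 7 did not pass. Over all tested probe sets 18.5% were higher and 19.8% lower. The members were chosen with earlier results known, so no difference between genes with and without a half-site is read from these counts.

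The upstream bases of the 4 genes with a half-site there and the largest changes are shown first, 5′ to 3′, with the half-sites in capitals. Polk and Gadd45a fell, and Rps27l and Ei24 rose.
Polk, chr13:96519188-96519437, minus strand: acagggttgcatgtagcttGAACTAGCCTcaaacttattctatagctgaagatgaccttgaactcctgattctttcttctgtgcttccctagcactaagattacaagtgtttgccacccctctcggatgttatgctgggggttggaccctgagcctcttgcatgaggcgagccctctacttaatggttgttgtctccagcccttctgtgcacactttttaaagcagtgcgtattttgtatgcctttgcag
Gadd45a, chr6:67037408-67037657, minus strand: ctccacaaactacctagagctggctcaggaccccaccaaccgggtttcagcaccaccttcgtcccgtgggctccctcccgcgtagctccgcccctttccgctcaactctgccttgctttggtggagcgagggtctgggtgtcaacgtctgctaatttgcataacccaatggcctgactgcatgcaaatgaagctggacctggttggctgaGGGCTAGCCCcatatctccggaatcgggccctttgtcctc
Rps27l, chr9:66946163-66946412, plus strand: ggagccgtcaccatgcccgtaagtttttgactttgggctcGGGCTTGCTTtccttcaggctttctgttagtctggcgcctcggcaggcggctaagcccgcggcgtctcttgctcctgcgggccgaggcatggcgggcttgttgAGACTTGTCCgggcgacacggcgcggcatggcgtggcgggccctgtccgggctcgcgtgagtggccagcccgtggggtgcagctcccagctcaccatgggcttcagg
Ei24, chr9:36797335-36797584, minus strand: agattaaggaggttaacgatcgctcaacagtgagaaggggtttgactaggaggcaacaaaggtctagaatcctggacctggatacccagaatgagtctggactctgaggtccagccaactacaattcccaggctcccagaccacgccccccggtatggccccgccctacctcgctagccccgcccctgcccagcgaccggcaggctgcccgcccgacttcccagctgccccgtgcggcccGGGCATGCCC
The half-site began 231 bases before the start in Polk, 40 in Gadd45a and 10 in Ei24. Rps27l held 2 separate half-sites, at 210 and 107, which do not adjoin. The Polk and Rps27l windows are each the second of 2 RefSeq starts, and the other window of each gene held none. Both printed windows lie downstream of the gene's other start, so their bases are upstream of the second start only. The other windows span chr13:96542530-96542829 in Polk and chr9:66945836-66946135 in Rps27l.

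Plk2 and Plk3, which rose, had no half-site in their windows. Their upstream bases, chosen after their values were seen, are shown with the GC box GGGCGG (either strand) in capitals.
Plk2, chr13:110394794-110395043, plus strand: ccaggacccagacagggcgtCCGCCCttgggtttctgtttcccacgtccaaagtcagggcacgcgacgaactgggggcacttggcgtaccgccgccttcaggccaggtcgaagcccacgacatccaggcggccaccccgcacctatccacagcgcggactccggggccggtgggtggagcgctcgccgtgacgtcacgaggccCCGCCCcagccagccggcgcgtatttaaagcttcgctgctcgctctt
Plk3, chr4:117133964-117134213, minus strand: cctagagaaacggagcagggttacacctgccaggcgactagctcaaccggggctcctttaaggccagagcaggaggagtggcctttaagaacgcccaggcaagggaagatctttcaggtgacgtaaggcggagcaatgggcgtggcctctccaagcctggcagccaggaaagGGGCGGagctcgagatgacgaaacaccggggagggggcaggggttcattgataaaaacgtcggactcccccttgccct
GGGCGG occurred in 22 of the 31 member windows (71%), against 35.7% of all windows and 49.6% of those of tested genes. CCAAT occurred in 17 (54.8%, against 37.4% of all windows), and TATAAA in 1 (3.23%, against 13.6%), the Eda2r window. Both strands were read, and none of these motifs contains another. These matches describe the windows, and a window without a match says only that those letters are not in it.

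Mdm2, the ligase that marks p53 for destruction, is itself a p53 target. It read 9.38, 9.22, 9.21 and 9.23 in the double-knockout arrays and 9.50, 9.53, 9.61 and 9.54 in wild-type arrays. All double-knockout arrays were below all wild-type arrays, and the fall was 0.28 ± 0.05 (SE) on the log2 scale (adjusted p = 0.000213). In the single knockouts Mdm2 did not pass, at 9.54 to 9.62 in the Hdac1 knockout and 9.52 to 9.59 in the Hdac2 knockout.

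Mdm4, which binds p53 and blocks its activity, gave 12.08, 12.16, 12.03 and 12.16 in the double knockout and 12.19, 12.29, 12.32 and 12.25 in wild type. The groups did not overlap but were close, with a fall of 0.15 ± 0.05 (adjusted p = 0.0176). Leaving out wild-type replicate 3 ended the call (adjusted p = 0.0534), as did leaving out double-knockout replicate 3 (0.063) and fitting only the compared arrays (0.0651).

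Ppm1d encodes the phosphatase Wip1, which removes activating phosphates from p53 and the kinases above it. It read 9.37, 9.28, 9.18 and 9.44 in the double knockout and 8.96, 9.07, 9.07 and 9.15 in wild type, a rise of 0.26 ± 0.07 (adjusted p = 0.0099). The groups were apart by little, and with each array centred on its median the call was lost (adjusted p = 0.0924). A second, dim Ppm1d probe set changed by 0.14 (adjusted p = 0.17). By these calls 1 of the 3 measured regulators rose and 2 fell in the double knockout, those of Mdm4 and Ppm1d being lost in some alternative fits. Over all tested probe sets 18.5% were higher and 19.8% lower.

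Among the repair genes, Polk encodes DNA polymerase kappa, which copies past damaged bases. It read 6.44, 6.52, 6.37 and 6.37 in the double knockout and 7.59, 7.62, 7.60 and 7.54 in wild type. The gap between the groups was far wider than the spread within either, and the fall of 1.16 ± 0.05 had an adjusted p of 4.36e-11. The Hdac2 knockout stood a little below wild type, at 7.38, 7.29, 7.34 and 7.45, and the Hdac1 knockout read 7.57, 7.47, 7.50 and 7.46.

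Rrm2b encodes the p53-inducible subunit of ribonucleotide reductase, which supplies nucleotides for repair. Its arrays read 10.04, 9.87, 9.73 and 9.96 in the double knockout and 10.36, 10.38, 10.62 and 10.42 in wild type, with a fall of 0.54 ± 0.07 (adjusted p = 1.48e-05). Ercc5, the XPG endonuclease of nucleotide excision repair, read 8.43, 8.56, 8.49 and 8.33 in the double knockout and 8.79, 8.81, 8.69 and 8.64 in wild type, a fall of 0.28 ± 0.06 (adjusted p = 0.00191). In both genes every double-knockout array was below every wild-type array. Xpc, the damage sensor of the same repair pathway, did not pass, at 8.02 to 8.14 in the double knockout and 7.91 to 8.11 in wild type, with an interval of the difference from -0.07 to 0.23. None of the 4 measured repair genes was called higher, where 18.5% of all tested probe sets were, so that count alone is no result about them.

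Plk2, a polo-like kinase that acts on centriole duplication and stress checkpoints, read 5.60, 5.98, 5.35 and 5.53 in the double knockout. It read 3.69, 3.81, 3.69 and 3.69 in the Hdac1 knockout, 3.54, 3.69, 3.53 and 3.72 in the Hdac2 knockout and 3.73, 3.74, 3.57 and 3.57 in wild type. Only the double-knockout arrays left the low range, in which the other 12 arrays overlapped. The rise was 1.96 ± 0.10 (adjusted p = 2.52e-10). Outside the double knockout Plk2 lay below the median of tested probe sets and was not shown to be above background, so its fold is a ratio of signals, and no order between Plk2 and Plk3 is read from it.

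Plk3, a related kinase activated by stress, read 7.08, 7.15, 7.25 and 6.73 in the double knockout. The Hdac1 knockout gave 5.25, 5.19, 5.03 and 5.33, the Hdac2 knockout 5.77, 5.20, 5.24 and 5.36, and wild type 5.18, 5.25, 5.22 and 5.16. As with Plk2, the double-knockout arrays stood clear of all others, with a rise of 1.85 ± 0.12 (adjusted p = 4.2e-09). Wild-type and Hdac1-knockout arrays each averaged 5.20, under the median of tested probe sets (5.27), while Hdac2-knockout arrays averaged 5.39. At 5.20 Plk3 was not shown to be above background, so its fold is a ratio of signals too. The promoters printed above for Plk2 and Plk3 share a GGGCGG box and lack a half-site in the window.

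**Figure D2:**
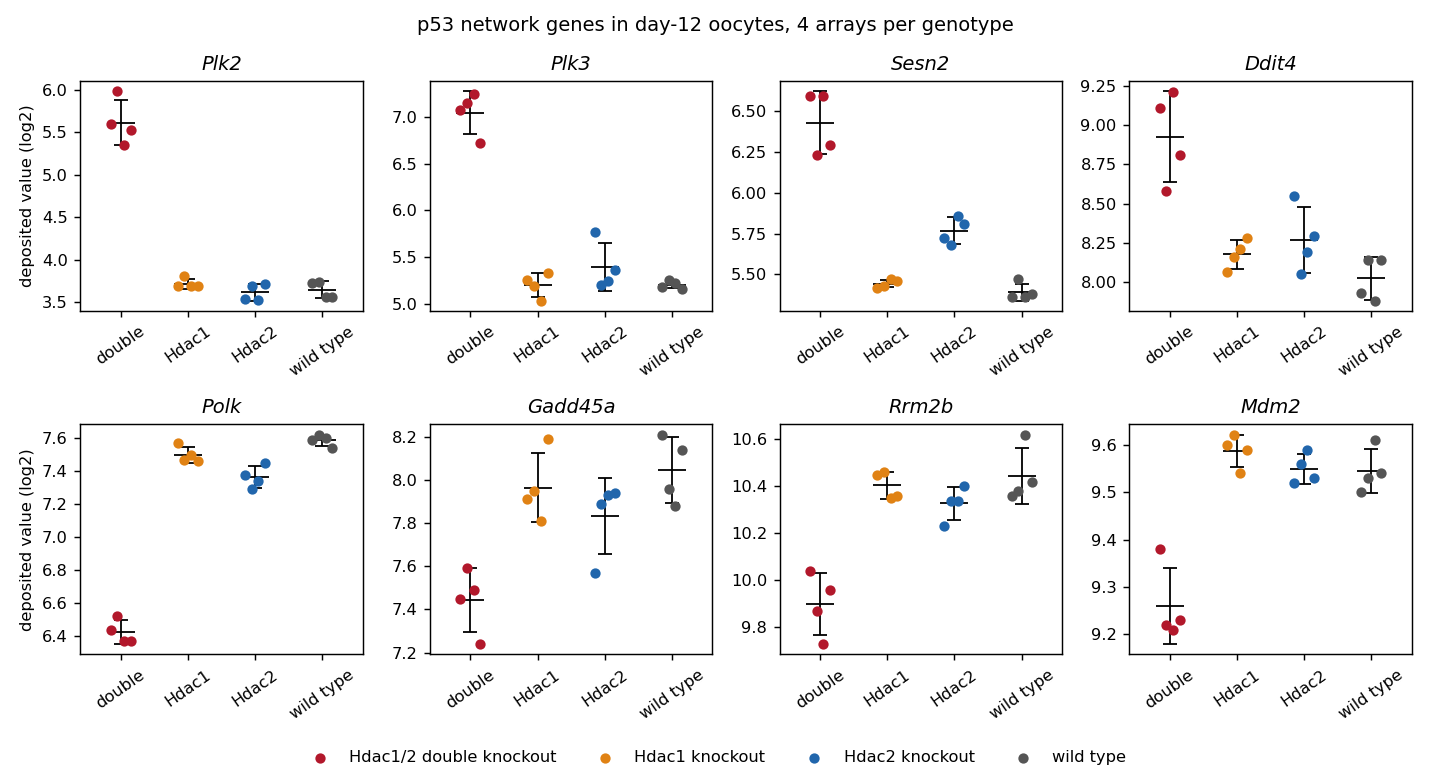
Deposited log2 value of 8 genes in every array (y axis, with its own range in each panel), by genotype. Points are arrays, and black bars give the mean ± SD of 4 arrays. Double-knockout arrays lie above every other array for Plk2, Plk3, Sesn2 and Ddit4, and below every other array for Polk, Rrm2b and Mdm2, while for Gadd45a 1 Hdac2-knockout array (7.57) lies within their range.

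The sestrins are stress proteins that curb reactive oxygen species and mTORC1. Sesn2 read 6.59, 6.23, 6.59 and 6.29 in the double knockout and 5.36, 5.47, 5.36 and 5.38 in wild type, a rise of 1.03 ± 0.08 (adjusted p = 2.29e-08). The Hdac2 knockout lay between them without overlap, at 5.72, 5.68, 5.86 and 5.81, while the Hdac1 knockout read 5.42, 5.43, 5.47 and 5.46. Sesn1 rose less, by 0.32 ± 0.08 (adjusted p = 0.00577), with 7.08, 6.76, 6.93 and 6.85 in the double knockout and 6.50, 6.61, 6.62 and 6.60 in wild type. Its groups did not overlap either. Sesn2 lies 42 tested genes from Hdac1 on chromosome 4 and Sesn1 32 from Hdac2 on chromosome 10. Sesn2 changed by 0.06 ± 0.08 in the Hdac1 knockout and Sesn1 by -0.20 in the Hdac2 knockout, neither called. On chromosome 4, Plk3 and Trp53inp1 lie 166 and 699 tested genes from Hdac1. On chromosome 10, Perp, Ddit4, Dram1, Apaf1 and Mdm2 lie 95, 99, 422, 439 and 543 from Hdac2. The part of linked DNA in the changes of all these genes was not tested.

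Ddit4, also called REDD1, restrains mTORC1 under hypoxia, energy stress and DNA damage. It read 9.11, 8.58, 9.21 and 8.81 in the double knockout and 7.93, 8.14, 7.88 and 8.14 in wild type. Its double-knockout arrays varied more than most, but all were above wild type, and it rose by 0.90 ± 0.13 (adjusted p = 2.2e-05). Rps27l, a ribosomal protein paralog that p53 induces, read 10.65, 10.73, 11.01 and 10.93 in the double knockout and 10.43, 10.38, 10.13 and 10.37 in wild type, a rise of 0.50 ± 0.10 (adjusted p = 0.000487) with no overlap. Whether its probes also read the paralog Rps27 was not tested. The last of the higher stress genes was Gtse1, a microtubule-associated protein of the G2 phase that moves p53 out of the nucleus, at 8.69 ± 0.07 in the double knockout and 8.46 ± 0.09 in wild type (SD, n = 4 each; adjusted p = 0.0038). Its call was lost after median centring of the arrays (adjusted p = 0.0621).

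Gadd45a and Ckap2 went the other way. Gadd45a, a small stress protein that inhibits mitotic entry and takes part in repair, read 7.45, 7.59, 7.49 and 7.24 in the double knockout and 8.21, 7.96, 7.88 and 8.14 in wild type, a fall of 0.60 ± 0.11 (adjusted p = 0.000204). Ckap2, a spindle protein that stabilises microtubules, read 9.50, 9.56, 9.56 and 9.63 in the double knockout and 9.83, 9.69, 9.77 and 9.84 in wild type, a fall of 0.22 ± 0.05 (adjusted p = 0.00297). In both, the double-knockout arrays were all below the wild-type arrays. Ccng1, a cyclin that recruits a phosphatase to Mdm2, Tigar, a brake on glycolysis, and Sertad1, a partner of cyclin D complexes, did not pass, at -0.03, 0.07 and 0.22 on the log2 scale.

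Of the 12 death genes, Ei24, Tnfrsf10b and Apaf1 were called. Ei24, an endoplasmic reticulum protein linked to autophagy and apoptosis, read 10.22, 9.99, 10.17 and 10.25 in the double knockout and 9.64, 9.79, 10.04 and 9.79 in wild type. One wild-type array reached into the double-knockout range, and the rise was 0.35 ± 0.09 (adjusted p = 0.0048). Tnfrsf10b, the death receptor for TRAIL, was dim in every genotype, at 3.99, 3.92, 4.33 and 4.09 in the double knockout and 3.89, 3.67, 3.87 and 3.76 in wild type. Its rise of 0.28 ± 0.09 (adjusted p = 0.0221) was lost without wild-type replicate 2 (0.073), wild-type replicate 4 (0.0524) or double-knockout replicate 3 (0.0853), and with each array centred on its median (0.111).

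Apaf1 forms the apoptosome that activates caspases once mitochondria release cytochrome c. It read 5.83, 5.55, 5.62 and 5.95 in the double knockout and 5.79, 6.19, 6.25 and 6.05 in wild type, a fall of 0.33 ± 0.10 (adjusted p = 0.0182). Wild-type replicate 1 lay inside the double-knockout range. Without wild-type replicate 2 or 3 the adjusted p was 0.0568 or 0.0674, without double-knockout replicate 2 or 3 it was 0.0651 or 0.0571, and with only the compared arrays it was 0.0537.

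The other death genes did not pass. They were Trp53inp1 (a p53 cofactor that promotes death and autophagy), Phlda3 (an inhibitor of Akt), Zmat3 (an RNA-binding protein), Perp (a junction protein), Fas and Eda2r (receptors of the TNF receptor family), Aen (a nuclease), Pidd1 (the scaffold of the PIDDosome) and Dram1 (a lysosomal protein of autophagy). Their changes in the double knockout ran from -0.16 for Perp to 0.09 for Zmat3. Over the 13 members that did not pass, the 95% intervals reached down to -0.42 (Aen) and up to 0.47 (Sertad1). With each array centred on its median, Eda2r, Fas and Perp were called lower. A set of 9 members had a mean over the arrays below the median of tested probe sets, namely Plk2, Tnfrsf10b and 7 of these death genes.

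In the Hdac1 knockout 0 of the 31 members were called by limma, where 0.0189% of all tested probe sets were higher and 0.0518% lower. At an unadjusted p under 0.05 there was 1, Perp, named after its values were seen, at 5.11 ± 0.11 in the Hdac1 knockout and 5.38 ± 0.16 in wild type (SD, n = 4 each; adjusted p = 0.464). The member changes ran from -0.34 to 0.16 with a median of -0.02, against 0.00 for all tested probe sets. Their 95% intervals reached from -0.75 (Aen) to 0.42 (Ddit4).

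The Hdac2 knockout had 3 called members, 1 higher and 2 lower, where 2.86% of tested probe sets were higher and 2.74% lower. Sesn2 rose by 0.38 ± 0.08 (adjusted p = 0.00868), with the values given above, and kept its call in each fit that left out 1 array. Polk fell by 0.22 ± 0.05 (adjusted p = 0.0213), and its arrays did not overlap with wild type. That call was lost without wild-type replicate 2 (adjusted p = 0.0553) or 3 (0.0525) or Hdac2-knockout replicate 2 (0.0641) or 3 (0.0527), and with an intensity trend in the prior (0.055).

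Apaf1 fell by 0.45 ± 0.10 in the Hdac2 knockout (adjusted p = 0.0205), where it read 5.57, 5.64, 5.66 and 5.63, all below the wild-type arrays. The Hdac1 knockout read 6.21, 6.15, 5.90 and 6.22. The Hdac2 call was lost without wild-type replicate 2 (adjusted p = 0.058) or 3 (0.0685) or Hdac2-knockout replicate 1 (0.0599). Apaf1 lies on chromosome 10 with Hdac2, 439 tested genes away. Perp, at 5.03 ± 0.14 in the Hdac2 knockout and 5.38 ± 0.16 in wild type (SD, n = 4 each), was not called (adjusted p = 0.0543). It was called lower after median centring, after quantile normalization, with dim probe sets left out and without wild-type replicate 3. The fit without dim probe sets is no check here, since Perp passed that filter only through wild type, where it is high.

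**Figure D3:**
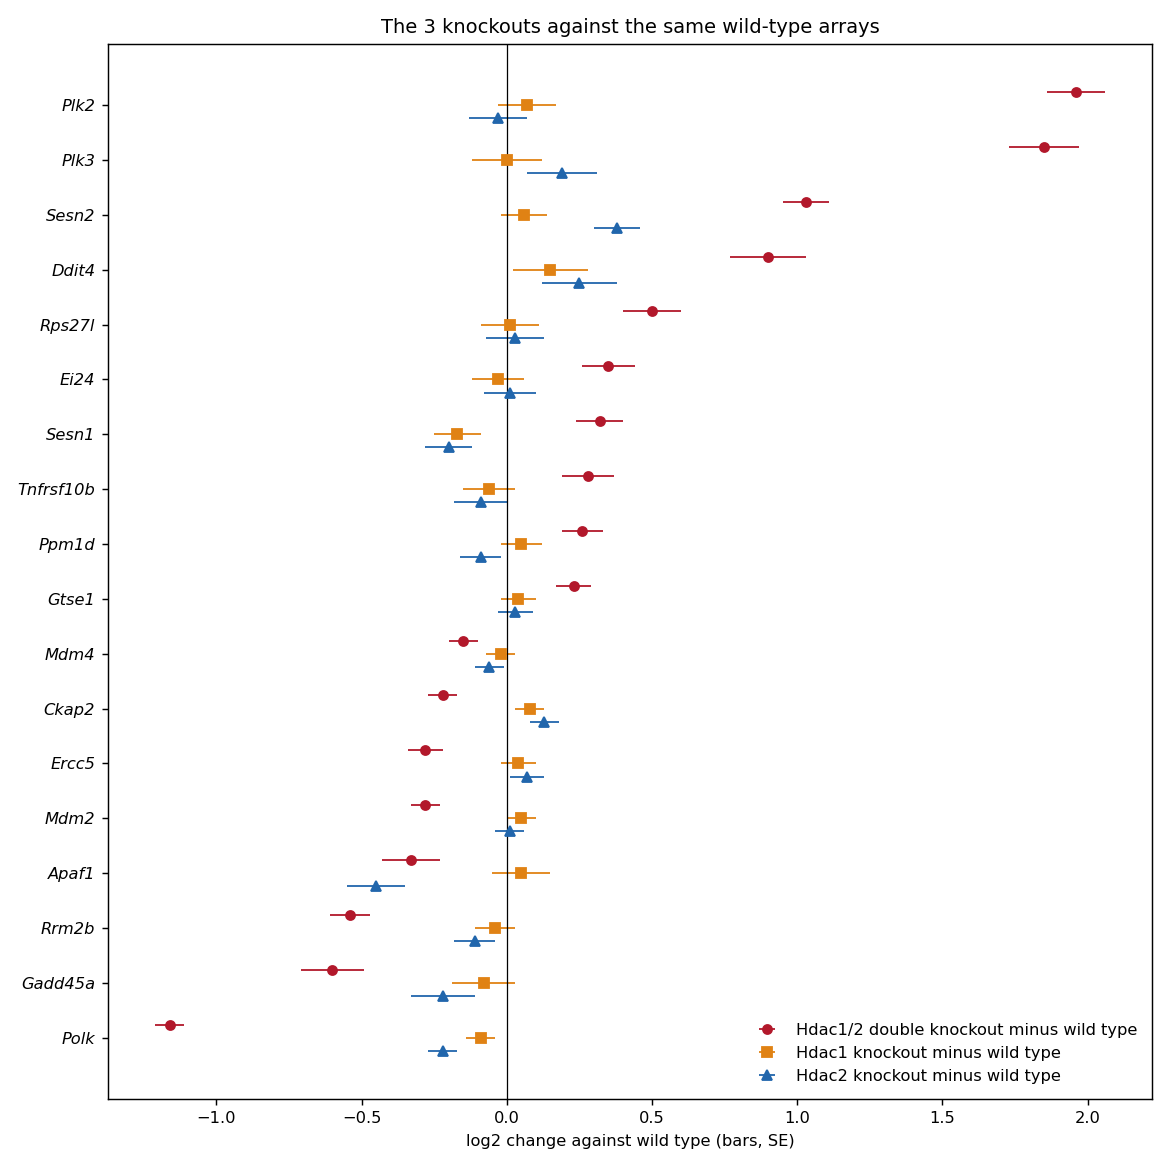
Log2 change against wild type of the 18 genes called in the double knockout, for the double, Hdac1 and Hdac2 knockouts, with limma's SE as bars. All 3 changes of a gene share the same 4 wild-type arrays. Circles (double knockout) spread from -1.16 to 1.96. Of the squares and triangles (single knockouts), those called were Sesn2 (0.38), Polk (-0.22) and Apaf1 (-0.45, beyond its double-knockout change of -0.33), all in the Hdac2 knockout.

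The double knockout was also set against each single knockout, which asks what the second deletion adds. Against the Hdac1 knockout 10 members were higher and 8 lower, where 18.7% of tested probe sets were higher and 20.1% lower (after median centring of the arrays, 2886 higher and 6907 lower probe sets, against 3964 and 4256 as deposited). Plk2 differed by 1.89 ± 0.10, Plk3 by 1.85 ± 0.12 and Sesn2 by 0.98 ± 0.08, and Polk by -1.07 ± 0.05 (adjusted p from 1.21e-10 for Polk to 4.29e-08 for Sesn2). Mdm4 and Ppm1d lost this call in 6 and 7 of 15 alternative fits.

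Against the Hdac2 knockout 11 members were higher and 6 lower, where 16.8% of tested probe sets were higher and 16.9% lower (centred, 2459 higher and 5602 lower, against 3566 and 3589 as deposited). Plk2 was higher by 2.00 ± 0.10 and Plk3 by 1.66 ± 0.12, and Tigar, at 7.72 ± 0.11 in the double knockout and 7.47 ± 0.09 in the Hdac2 knockout, by 0.25 ± 0.07 (adjusted p = 0.0138). Apaf1 and Mdm4 were not called, with differences of 0.11 and -0.10. These comparisons share the double-knockout arrays with each other and with the comparison against wild type.

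The interaction contrast measured how far the double knockout departed from the sum of both single-knockout changes on the log2 scale. It was called for 15 members, 10 upward and 5 downward, where 11.7% of tested probe sets were called upward and 11.6% downward (centred, 1731 upward and 3903 downward, against 2479 and 2460 as deposited). Among the members, centring left 4 upward and 5 downward calls, the 6 lost ones all upward. The departure was 1.93 ± 0.14 for Plk2 (adjusted p = 8.11e-08) and 1.66 ± 0.17 for Plk3 (3.27e-06), whose single-knockout changes were 0.07 and 0.00 in the Hdac1 knockout and -0.03 and 0.19 in the Hdac2 knockout. For Polk it was -0.85 ± 0.07 (5.17e-07), for Sesn1 0.69 ± 0.12 (0.000515), for Sesn2 0.60 ± 0.11 (0.000751) and for Mdm2 -0.33 ± 0.07 (0.00243). In all 22 alternative fits 9 members kept the call, namely Ckap2, Ercc5, Mdm2, Plk2, Plk3, Polk, Rrm2b, Sesn1 and Sesn2. For Plk2 the fit without dim probe sets is no check, since it passed that filter only through the double knockout, where it is high. Ei24, Perp, Ppm1d, Rps27l, Tigar and Tnfrsf10b lost it in 1 to 13 of them. Perp and Tigar had this call but none against wild type in the double knockout. Against wild type Perp changed by -0.16 in the double, -0.27 in the Hdac1 and -0.35 in the Hdac2 knockout, and Tigar by 0.07 in the double, -0.06 in the Hdac1 and -0.18 in the Hdac2 knockout, none of them called.

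Other genes of the pathway were read from the same fit. Both p53 relatives fell in the double knockout. Trp63, the gene of p63, read 8.24 to 8.60 in the double knockout and 8.95 to 9.17 in wild type, a fall of 0.67 ± 0.08 (adjusted p = 2.28e-06), and Trp73, the gene of p73, fell by 0.37 ± 0.10 (adjusted p = 0.00787). Trp73 was also lower in the Hdac2 knockout, by 0.47 ± 0.10 (adjusted p = 0.0127).

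Of 12 kinases and damage sensors above p53, 2 rose (16.7%), 6 fell (50%) and 4 did not pass, against 18.5% higher and 19.8% lower over all tested probe sets. Atm, the kinase that answers double-strand breaks, averaged 7.94 ± 0.07 in the double knockout and 6.91 ± 0.10 in wild type (SD, n = 4 each), a rise of 1.03 ± 0.09 (adjusted p = 1.03e-07), and it was higher in the Hdac2 knockout by 0.35 ± 0.09 (adjusted p = 0.0265). Mdc1, a mediator at breaks, rose by 0.27. The mediator Trp53bp1 fell by 0.52 and the checkpoint kinase Chek1 by 0.28, while Chek2 did not pass, at 6.82 ± 0.04 in the double knockout and 6.93 ± 0.19 in wild type (SD, n = 4 each; adjusted p = 0.461).

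Of 23 proteins that modify p53 or its regulators, 8 rose (34.8%), 6 fell (26.1%) and 9 did not pass, against the same 18.5% and 19.8% of all tested probe sets. Without dim probe sets, 3070 of 11161 probe sets were higher and 3883 lower. The methyltransferase genes Prmt5 and Setd7 rose by 1.11 ± 0.14 and 0.57 ± 0.08, and the acetyltransferase gene Kat5 and the ubiquitin ligase gene Herc2 fell by 0.48 ± 0.05 and 0.45 ± 0.07 (adjusted p from 2.38e-06 for Kat5 to 3.58e-05 for Herc2). Setd7 averaged below the median of tested probe sets in wild type and in the double knockout, and was not shown to be above background.

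A further 30 genes were listed as p53 targets, and 7 of them rose (23.3%) and 5 fell (16.7%), with 18 not passing. These shares are near those of all tested probe sets (18.5% higher and 19.8% lower), so the count is no result about these targets. Cdkn1a, the cyclin-dependent kinase inhibitor p21 and the best known p53 target, read 5.62 to 6.28 in the double knockout and 4.24 to 4.86 in wild type, a rise of 1.36 ± 0.14 (adjusted p = 1.08e-06). Btg2, an anti-proliferative gene, rose by 1.64, Ccng2, an atypical cyclin, by 1.14, and Ptp4a3, a phosphatase, by 0.79. Among the 5 that fell, named after their values were seen, were Cyfip2, which takes part in actin regulation (-0.89, adjusted p = 9.38e-06), Trp53rkb (-0.63) and Psrc1, a spindle protein (-0.46). Trp53rkb and its relative Trp53rka stood on this list although they are named as kinases that regulate p53. The BH3-only death genes Pmaip1 (Noxa) and Bbc3 (Puma) rose by 1.13 ± 0.17 and 0.31 ± 0.07 (adjusted p = 4.32e-05 and 0.00136). Pmaip1 read 5.18 to 6.23 in the double knockout and 4.42 to 4.75 in wild type, and Bbc3 read 4.74 to 4.89 in the double knockout and 4.40 to 4.63 in wild type. In wild type Cdkn1a, Ptp4a3, Pmaip1 and Bbc3 averaged below the median of tested probe sets (5.27), and Ptp4a3 and Bbc3 did so in the double knockout too. They were not shown to be above background in wild type, so their rises are changes in signal. The median change of the 30 listed genes was -0.01.

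**Figure D4:**
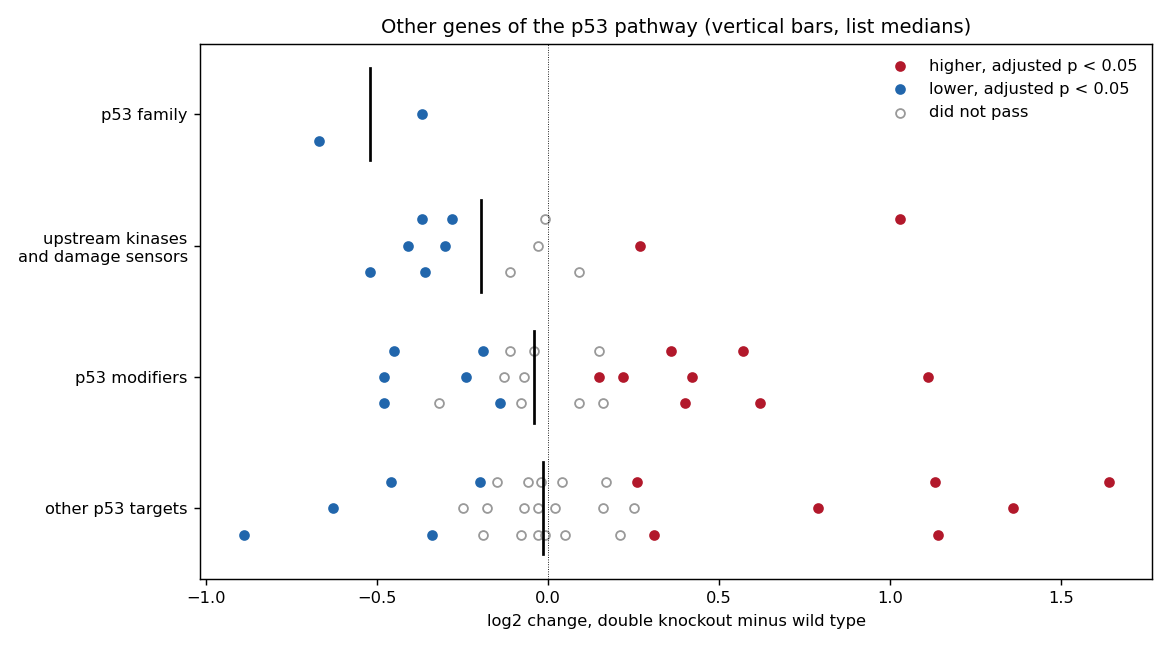
Log2 change in the double knockout against wild type of other genes of the p53 pathway, 1 point a gene, in 4 lists (rows); height within a row only separates points, and black bars are list medians. Red points were called higher, blue lower, and open points did not pass. Both p53 relatives lie below 0, and Atm at 1.03 and Btg2 at 1.64 lead their rows.

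Markers of other ovarian cells were read beside these results. The mean of 11 granulosa markers ran from 5.03 to 5.21 over the double-knockout arrays and from 4.95 to 5.08 over wild-type arrays. Of these markers 4 (36.4%) were higher (Gja1, Wt1, Inha and Krt18) and 2 (18.2%) lower (Nr5a2 and Kitl). Wt1, Inha, Krt18 and Kitl averaged below the median of tested probe sets (5.27) in wild type and in the double knockout. They were not shown to be above background. Amh, Foxl2, Fshr, Hsd17b1 and Inhba did not pass. Over all tested probe sets 18.5% were higher and 19.8% lower. Nr5a2 averaged 9.82 in wild type and changed by -1.07, which lowers the double-knockout mean of the list. Theca and stroma markers ran from 3.86 to 3.91 in the double knockout and from 3.78 to 3.87 in wild type, with 1 of 11 called, Acta2. The mean of 9 blood, immune and endothelial markers ran from 4.49 to 4.61 in the double knockout and from 4.73 to 4.82 in wild type, with Pecam1 (-1.37) and Tek (-0.81) lower, Cd68 higher (0.38) and 6 not passing. The median change of these 9 was -0.01. The oocyte markers ran from 11.38 to 11.40 in the double knockout and from 11.45 to 11.46 in wild type, and 4 of 16 (25%) were lower (Figla, Ddx4, Kit and Dazl). The calls of Dazl, Acta2, Cd68, Inha and Krt18 were lost in some alternative fits. Dazl's was lost without double-knockout replicate 2 or 3 or without wild-type replicate 2, 3 or 4 (adjusted p from 0.0518 to 0.0902). Acta2's was lost without double-knockout replicate 1 or wild-type replicate 2 (0.0545 and 0.0518), and after centring (0.0725). Cd68's was lost without double-knockout replicate 3 or 4 or wild-type replicate 1 or 3 (0.0611 to 0.0992), and after centring (0.0716). Inha's was lost without double-knockout replicate 1 or 3 or wild-type replicate 2 or 3 (0.0529 to 0.071). Krt18's was lost without double-knockout replicate 1 or 4 or wild-type replicate 1, 3 or 4 (0.0563 to 0.143), after centring (0.159), after quantile normalization (0.19) and with a replicate block (0.0574). With only the compared arrays Dazl (0.079), Inha (0.0826) and Krt18 (0.0579) lost theirs. The part of these shifts in the results was not tested.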

How the data were processed

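The authors deposited 16 arrays of 35556 probe sets as values on a log scale, read here as log2. The labels do not state the base, which was inferred from the range (2.07 to 12.89). The submitters' processing notes name MAS5, with no order of steps, so what was done between scan and table is unknown here. Values were used as deposited. Array medians ran from 4.46 to 4.59, highest in the double-knockout arrays, and the precision is limited by 4 arrays a genotype. Over the tested probe sets the mean array median differed from wild type by 0.088 in the double knockout. The difference was -0.009 in the Hdac1 knockout and 0.003 in the Hdac2 knockout.

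The 21218 probe sets with exactly 1 annotated symbol were fitted with limma 3.58.1 under R 4.3.3, with 1 mean per genotype over all arrays (lmFit, contrasts.fit and eBayes, 12 residual degrees of freedom), two-sided p-values and Benjamini-Hochberg adjustment within a contrast. The code was tested on simulated data. Members, roles and lists were chosen with earlier results of these data known. Array values and full statistics are given for the regulators, for members called in a single knockout, and for up to 8 higher and 8 lower members with the largest called change in the double knockout. Other lists give up to 4 called members with the smallest adjusted p, plus Cdkn1a, Bbc3, Pmaip1, Atm and Chek2. Bax was not analysed here. Replicate numbers were checked for pairing: in 24 pairs of genotypes and numbers the deviations correlated at -0.148 to 0.087, so they do not pair the samples. Alternatives were other scaling, a filter on dim probe sets, a replicate block, the mean of a gene's probe sets, only the arrays compared, a robust trended prior, a limit of 1.4-fold, and leaving out each array. RefSeq promoters were searched on both strands.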

Additional observations from a re-analysis of the deposited data

Results flagged for a closer look

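In 8 of 124 groups of 4 arrays, 1 array lay far from the other 3 by Dixon's test at its 95% critical value, and chance alone marks about 1 group in 20. Mdm2 read 9.38 in double-knockout replicate 1, above 9.21 to 9.23 in the other 3. In the Hdac1 knockout, replicate 2 was high for Plk2 (3.81) and low for Tnfrsf10b (3.62). In the Hdac2 knockout, replicate 3 was high for Gtse1 (8.56) and low for Eda2r (3.34), and replicate 1 was low for Gadd45a (7.57). In wild type, replicate 1 was low for Sesn1 (6.50) and replicate 2 high for Aen (5.89).

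The double knockout departed from the sum of both single-knockout changes for 15 members, by limma's interaction contrast. The departure was upward for Plk2 (1.93), Plk3 (1.66), Sesn1 (0.69), Sesn2 (0.60), Rps27l (0.46), Perp (0.46), Tnfrsf10b (0.43), Ei24 (0.37), Tigar (0.31) and Ppm1d (0.30). It was downward for Polk (-0.85), Ckap2 (-0.43), Rrm2b (-0.39), Ercc5 (-0.39) and Mdm2 (-0.33).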

How the results depend on the processing

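No called member change turned its direction under any alternative in the 6 contrasts. Among the 13 members not called in the double knockout against wild type 9 turned in at least 1 alternative, Tigar, Xpc and Ccng1 among them. Of 314 alternative values for called member changes against wild type 292 kept their side of the threshold and 22 lost the call, for Mdm4, Ppm1d, Polk, Apaf1, Tnfrsf10b or Gtse1. Among the named genes of the other lists 474 values stayed on their side of the threshold and 28 lost the call, for Dazl, Acta2, Cd68, Inha and Krt18. The 474 include Chek2, which had no call to lose. The fit without dim probe sets is no check on Plk2, Cdkn1a, Pmaip1 or Trp53rkb. Plk2, Cdkn1a and Pmaip1 passed that filter only through the double knockout, where they are high. Trp53rkb passed it only through wild type, where it is high. With a limit of 1.4-fold added, 5 members were higher and 3 lower in the double knockout against wild type, 0 were called in the Hdac2 knockout, 9 in the double against the Hdac1 knockout, 6 against the Hdac2 knockout and 5 in the interaction; the limit can only remove calls. Centring each array on its median left 9 interaction calls. Such centring takes out the higher median of the double-knockout arrays (0.088 above wild type), and the cause of that shift was not tested. Leaving out 1 array gave 1 to 3 calls in the Hdac2 knockout, the single call without wild-type replicate 2. A replicate block left 10 higher and 8 lower members in the double knockout and 14 interaction calls, without Perp. The replicate numbers showed no strong pairing of the samples. The fit with only the arrays compared was not run for the interaction, which uses all genotypes. Signal limits dim members such as Fas and Eda2r.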
